A study of Mus musculus with 2 samples.

Results

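Genes of the mitochondrial respiratory chain were examined in dorsal skin of NC/Nga mice with dermatitis, with and without recombinant ZAG. The set was defined by gene symbol, and its choice was made with earlier results of these data known. It takes the Nduf genes of complex I, the Sdh genes of complex II, the Uqcr genes and Cyc1 of complex III, the Cox4 to Cox8 genes of complex IV and all symbols that begin with Atp5, which name subunits of complex V. Of 22180 genes measured by probes with 1 gene symbol, 79 fitted the rule: 32 of complex I, 4 of complex II, 8 of complex III, 17 of complex IV and 18 of complex V. The symbol Atp5c1-ps is a pseudogene and Cox7a2l is a factor of supercomplex assembly, so the set is slightly wider than the enzyme subunits. Both groups were female mice of NC/Nga, an inbred strain that develops dermatitis readily. They entered at 6 weeks of age, received ointment of Dermatophagoides farinae (house dust mite) body extract 2 times a week for 6 weeks, and are labelled as 13 weeks old. The control group carries the label AD, and the other group was in addition treated on the skin with recombinant ZAG, zinc-alpha-2-glycoprotein, 2 times a week for 6 weeks, at 1 µg/mL per the series design text. That text names 3 mice in each group, whereas the table has 1 column per group, and whether a column is 1 mouse, a pool or a mean is not given here by any label.

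The respiratory chain sits in the inner mitochondrial membrane. Complex I (NADH dehydrogenase) and complex II (succinate dehydrogenase) pass electrons to ubiquinone, complex III passes them on to cytochrome c, and complex IV (cytochrome c oxidase) reduces oxygen. Complexes I, III and IV pump protons, and complex V (ATP synthase) uses the gradient to make ATP. Most subunits are encoded in the nucleus and made in nearly every cell. A few complex IV subunits also exist as isoforms of heart and skeletal muscle, testis or lung. In skin, keratinocytes rely largely on glycolysis, while skeletal muscle, of which a thin layer underlies mouse skin, is rich in mitochondria.

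The values are array levels on a log2 scale, and each difference is ZAG minus control. With 1 array per group there is no replicate error and no test, and each difference describes these 2 arrays. As a scale for probe error, the SD of this difference among probes of the same gene, pooled over genes, was 0.244. It covers the 591 genes with several probes at or above the median level of all genes (3.87), so dimmer genes are left out. A background gauge was set at 3.16, the 95th percentile of the levels of 1394 olfactory and vomeronasal receptor genes. Skin markers were bright, with the basal keratin gene Krt14 at 11.3 and 10.6 in control and ZAG and the suprabasal keratin gene Krt10 at 12.2 on both arrays. In bulk tissue, fewer cells of a type and less RNA per cell cannot be told apart.

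The respiratory chain genes were slightly higher in ZAG-treated skin, nearly as a block. By the sign of the deposited values, 67 of the 79 genes (84.8%) were higher with ZAG, where 51.8% of all genes were, and 12 were lower, where 47.9% of all genes were. These counts include 6 genes below the gauge on both arrays and 1 below it on 1 array, whose signs carry little information. Their median difference was 0.19, a 1.14-fold difference, against 0.01 over all genes. At least 1.2-fold higher were 28 members (35.4%), where 16.4% of all genes passed that fold. The deposited values of 6 members (7.59%) were at least 1.2-fold lower, against 16.5% of all genes, but only 2 of the 6 were above the gauge on both arrays. Large differences were scarce. Only Cox7a1, the muscle form of a complex IV subunit, was at least 1.5-fold higher (1.27% of members, 2.21% of all genes). The deposited values of 2 members, Atp5g1 and Cox7b2, were 1.5-fold lower (3.64% of all genes were), but these genes were below the gauge on 1 and on both arrays, so that fold is not given for either. The deposited values of 0 members reached 2-fold in either direction (0.207% of all genes higher and 0.721% lower). The upward count shifts with the scale of the arrays: after median centring 59 members (74.7%) were higher, where 47.6% of all genes were.

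Genes of similar level gave nearly the same reference as all genes. The interquartile range of the members' mean levels ran from 5.53 to 8.11. Over the 5172 genes of the series within that range, the median difference was 0.02 and 53.0% were higher. Of the 39 members in the range, 36 were higher, with a median of 0.20. Of the 9 members with more than 1 probe, 7 were higher on every probe, and the exceptions were Atp5d and Cox7b. Of the 72 members at or above the gauge on both arrays, 65 were higher, where 52.4% of such genes were. The members below it on both arrays, which are given no fold, were Ndufs5, Cox7b2, Cox7c, Cox8c, Atp5j2 and Atp5c1-ps.

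**Figure D1:**
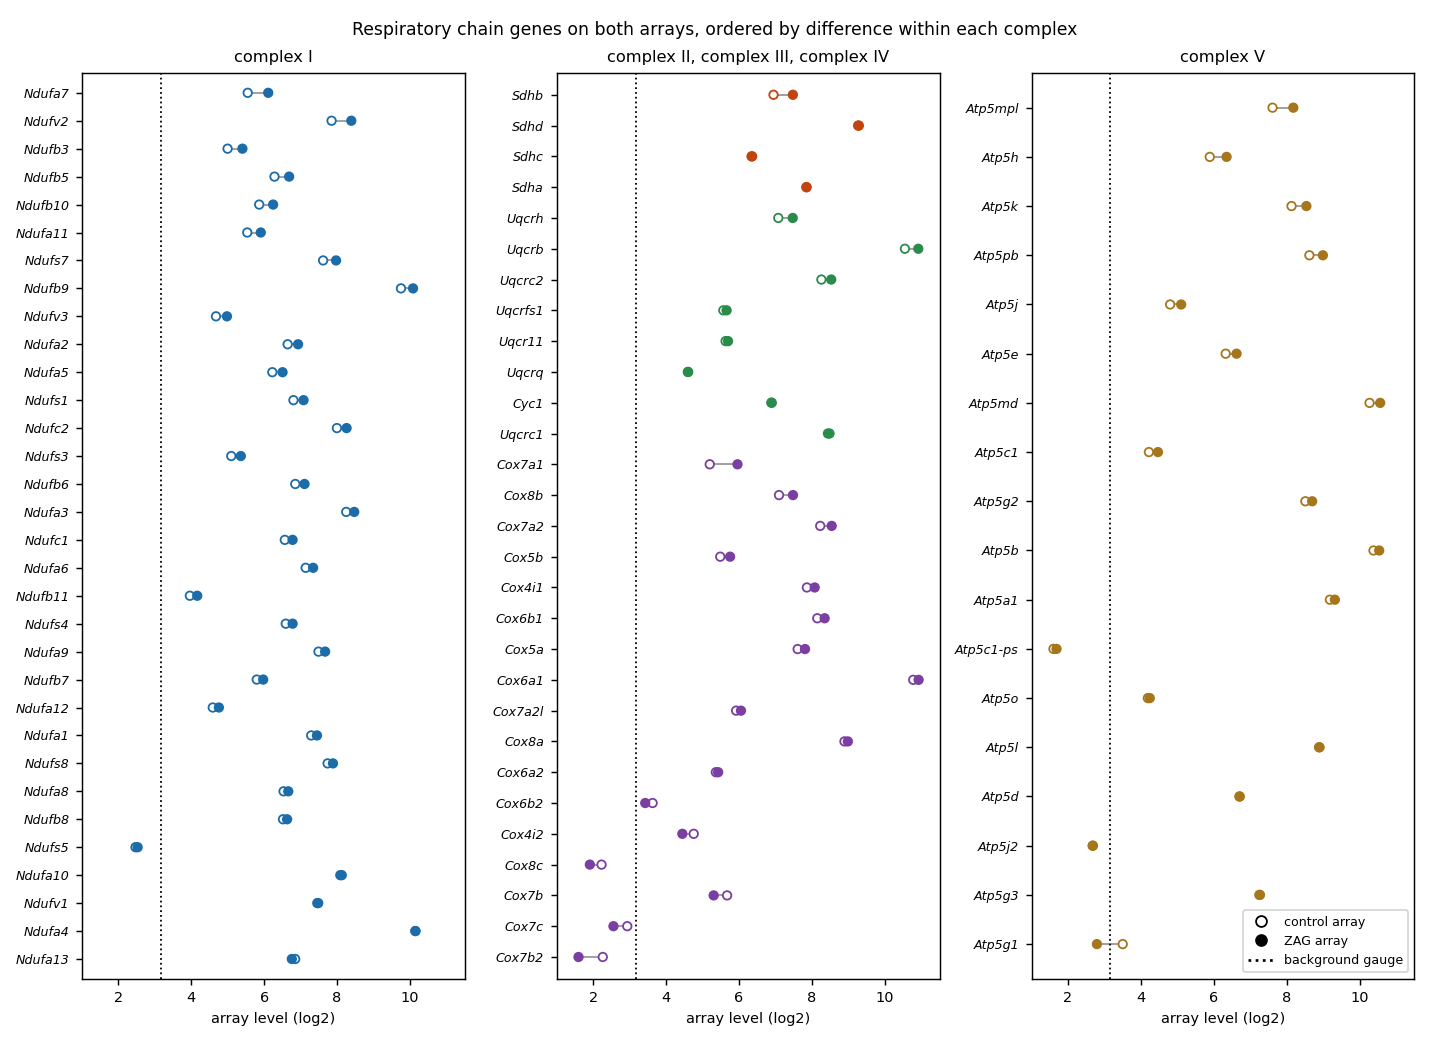
Array level (log2, x axis) of all 79 respiratory chain genes, ordered by their difference within each complex, with the control array as open circles, the ZAG array as filled circles and the background gauge as a dotted line. Most pairs are shifted slightly to the right in ZAG, and the pairs shifted to the left include several genes left of the gauge.

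Complex I, which opens the chain, gave the most even picture. Of its 32 genes, 31 were higher with ZAG (96.9%), where 51.8% of all genes were, and the median difference was 0.22. The higher ones include Ndufs5, below the gauge on both arrays. By 1.2-fold or more, 13 genes were higher (40.6%, against 16.4% of all genes) and 0 were lower (against 16.5% of all genes). The core subunits, which carry the flavin and the iron-sulphur clusters, were all higher (6 of 6, median 0.27). Ndufv2, a core subunit with an iron-sulphur cluster, read 7.85 in control and 8.39 with ZAG, which is 0.54 higher. Ndufs7, another core subunit, was at 7.62 and 7.97. Ndufs1, the largest subunit, was at 6.80 and 7.08, and Ndufs3 at 5.10 and 5.36. The smallest core differences were in Ndufs8 (0.15) and in Ndufv1 (0.03), which binds NADH and was at 7.46 and 7.48. The core thus ranged from almost level to 1.45-fold higher.

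The supernumerary subunits surround that core and stabilise it. The 8 genes of the B series, which lie in the membrane arm, were all higher, with a median of 0.29 and a narrow range of 0.11 (Ndufb8) to 0.41 (Ndufb3). Ndufb3 was at 4.996 in control and 5.40 with ZAG. Ndufb9 was at 9.75 and 10.1, a difference of 0.33. Ndufb5 (0.40) and Ndufb10 (0.38) lay near the top of the series, and Ndufb6 (0.25), Ndufb11 (0.20) and Ndufb7 (0.18) in its middle. Of the 18 other supernumerary genes, 17 were higher, with a median of 0.20. Ndufa7 differed most in complex I, with 5.55 in control and 6.11 with ZAG (0.56). Next in this group came Ndufa11 (0.37), whose 2 probes both gave 0.37, Ndufv3 (0.30) and Ndufa2 (0.29). Ndufa13, also known as Grim19, was the single complex I gene with a lower level with ZAG, at 6.85 and 6.76, which is less than the SD between probes. Ndufa4, named for complex I but since assigned to complex IV, was at 10.1 on both arrays (0.01). The remaining genes of the group lay between these ends. Ndufc2 and Ndufc1, of the membrane arm, were 0.27 and 0.21 higher. Ndufa5 was at 6.22 and 6.50, Ndufa3 at 8.25 and 8.47, and Ndufa6 at 7.14 and 7.34. Ndufs4, a subunit whose loss is a known cause of complex I deficiency, was at 6.59 and 6.78, and Ndufa9 at 7.49 and 7.67. The smallest differences were in Ndufa12 (0.17), Ndufa1 (0.16), Ndufa8 (0.13) and Ndufa10 (0.04), which read 8.09 in control and 8.13 with ZAG.

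**Figure D2:**
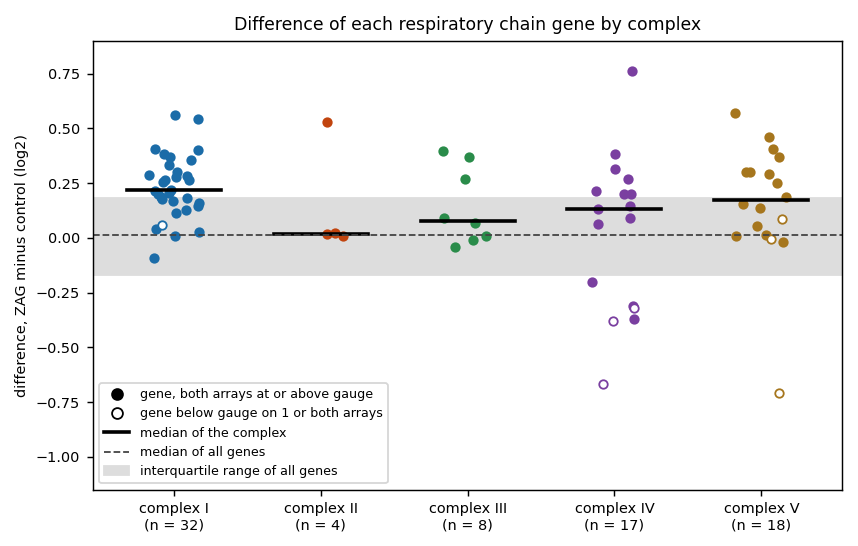
Difference (ZAG minus control, log2, y axis) of each respiratory chain gene by complex, with open circles for genes below the gauge on 1 or both arrays, black bars for the medians, and the median and interquartile range of all 22180 genes as a dashed line and a grey band. The medians were 0.22, 0.02, 0.08, 0.13 and 0.17 for complexes I to V, and the lowest points in complexes IV and V are mostly open circles.

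Complex II is also an enzyme of the tricarboxylic acid cycle, and its 4 genes differed unevenly. Sdhb, the iron-sulphur subunit, read 6.95 in control and 7.48 with ZAG, which is 0.53 higher. The flavoprotein subunit gene Sdha was at 7.85 on both arrays (0.01). The membrane anchor genes were as close, with Sdhc at 6.34 and 6.36 and Sdhd at 9.27 and 9.29. The median difference of 0.02 thus covers 1 gene that was 1.44-fold higher beside 3 that were level, and it was -0.01 after median centring.

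Complex III had 6 of 8 genes higher (75%), where 51.8% of all genes were, and a median difference of 0.08. Its 2 catalytic subunit genes, read here beside the supporting ones, were close to level: Cyc1, which encodes cytochrome c1, was at 6.90 and 6.89, and Uqcrfs1, which encodes the Rieske iron-sulphur protein, at 5.57 and 5.66. The largest differences were in small supporting subunits. Uqcrh, the hinge protein next to cytochrome c1, was at 7.08 in control and 7.47 with ZAG (0.40), and Uqcrb, a ubiquinone-binding subunit, at 10.5 and 10.9 (0.37). The core protein genes parted, since Uqcrc2 was 0.27 higher and Uqcrc1 was at 8.48 and 8.44. Uqcrq (0.01) and Uqcr11 (0.07) were close to level.

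Complex IV had the widest spread, with an SD across genes of 0.356 and a median difference of 0.13. Of its 17 genes, 11 were higher (64.7%), where 51.8% of all genes were. Grouped by where the isoforms are made, the genes had different medians with overlapping ranges. The 10 ubiquitous subunit genes had a median of 0.17, and 8 of them were higher. Cox4i1, the regulatory subunit, was at 7.86 and 8.08, Cox5a at 7.61 and 7.81 and Cox6b1 at 8.15 and 8.35. Cox5b was 0.27 higher. Its brighter probe gave 0.20 (8.04 and 8.25) and its other probe straddled the gauge at 2.92 and 3.26. Cox7a2l was 0.13 higher. The other 2 ubiquitous genes had negative values that rest on dim probes. Cox7c was below the gauge on both arrays, at 2.94 and 2.56. Cox7b averaged -0.37, but its probe near background read 2.71 and 1.94 while its bright probe read 8.64 and 8.67, so the bright probe alone shows a difference of 0.03.

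The isoforms of other tissues were dim or lower. The testis isoform genes Cox7b2 and Cox8c were below the gauge, and Cox6b2 was at 3.63 in control and 3.43 with ZAG. Cox4i2, the lung-type and oxygen-responsive form of subunit 4, was at 4.76 and 4.45, a difference of -0.31. It was the only other complex IV gene that was at least 1.2-fold lower and above the gauge on both arrays, besides Cox7b.

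The 3 muscle-type isoform genes were higher with ZAG, with a median difference of 0.38. Cox7a1 read 5.20 in control and 5.96 with ZAG, which is 0.76 higher and the largest difference of all 79 genes. Its ubiquitous partner Cox7a2 was at 8.23 and 8.54 (0.31), so the muscle form was 0.45 further up. Cox8b was at 7.10 and 7.48 (0.38), against 8.89 and 8.98 (0.09) for Cox8a, which leaves 0.29. Cox6a2 was at 5.37 and 5.43 (0.06), against 10.8 and 10.9 (0.15) for Cox6a1, a gap of -0.08 the other way. The muscle form was thus further up than its partner in 2 of 3 pairs. The gaps of Cox7a1 and Cox8b exceeded the SD between probes of a gene. That SD describes a single probe, whereas a gap joins 2 probes and has a wider error, so it does not settle these gaps.

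Skeletal muscle genes were higher beside these isoforms. Of 15 shared muscle marker genes, 13 were higher, with a median difference of 0.65 and a range of -0.21 to 0.99. Their summed linear level was 2382 in control and 3403 with ZAG, a ratio of 1.43. The members ran from Mylpf, a fast myosin light chain gene (0.99), and the calcium store gene Casq1 (0.98) to the creatine kinase gene Ckm (0.32), the actin gene Acta1 (0.13), the myoglobin gene Mb (0.07), the intermediate filament gene Des (-0.12) and the calcium release channel gene Ryr1 (-0.21). The fibre-type genes went in opposite directions. Myh4, of the fastest glycolytic fibres, was 1.59 higher, while Myh1 had a difference of -0.92 and Myh2, of fast oxidative fibres, of -1.69. Among 7 slow fibre genes 4 were higher and the median was 0.17, but the summed ratio was 0.767, the other way. It rests on the calcium pump gene Atp2a2, also made outside muscle, at 9.29 and 8.81, while the slow myosin gene Myh7 was at 3.46 and 3.23. Cox7a1 and Cox8b are also made in brown fat, whose defining gene Ucp1 was below the gauge on both arrays (2.47 and 2.51). Of 5 measured brown fat genes 4 had positive differences, Ucp1 among them, with a median of 0.24 and a summed ratio of 1.28. That median is the value of Ppargc1a, which was below the gauge in control, and the sum rests mostly on the bright gene Elovl3 (10.1 and 10.4). Cidea (0.33) and Elovl3 (0.37) were above the gauge on both arrays, but sebaceous glands make them too. The deiodinase gene Dio2 was at 3.82 in control and 2.97, below the gauge, with ZAG. All 7 measured adipocyte genes were higher (median 0.42, summed ratio 1.43). The part of muscle or fat content in the respiratory chain differences was not tested.

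**Figure D3:**
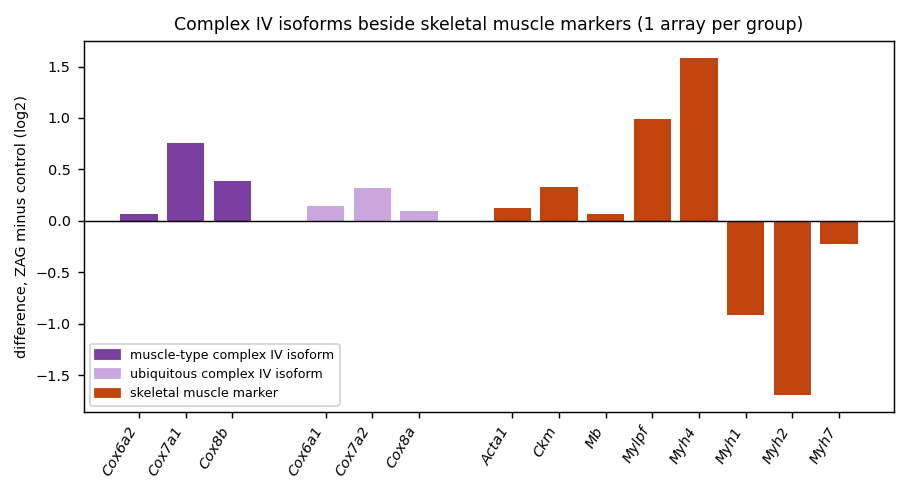
Difference (ZAG minus control, log2, y axis; bars start at 0) of the muscle-type complex IV isoform genes, their ubiquitous partners and 8 skeletal muscle genes on 1 array per group. Cox7a1 and Cox8b stand above their partners, and the muscle myosin genes run from 1.59 (Myh4) to -1.69 (Myh2).

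The promoters of the isoform genes are shown as a description, because these genes make up the comparison of muscle-type with ubiquitous forms. The sequences are read 5′ to 3′ over 250 bases before the gene start (RefSeq, GRCm38.p6). Capitals mark matches, on either strand, to GCATGCG (the core of the site of nuclear respiratory factor NRF-1), CCGGAAG (ETS factors such as GABP) or CAGCTG (an E-box form bound by myogenic factors). Matches to different motifs do not overlap in these 5 windows, whereas GCATGCG can overlap its own reverse complement. Cox6a2, the remaining isoform, had no promoter in the reference used.

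Cox7a1, chr7:30183921-30184170, + strand: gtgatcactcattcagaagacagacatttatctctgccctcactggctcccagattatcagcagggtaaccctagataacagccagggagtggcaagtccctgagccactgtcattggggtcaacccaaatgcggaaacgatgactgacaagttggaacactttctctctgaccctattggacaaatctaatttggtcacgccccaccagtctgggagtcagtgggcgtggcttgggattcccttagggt
Cox7a2, chr9:79759854-79760103, - strand: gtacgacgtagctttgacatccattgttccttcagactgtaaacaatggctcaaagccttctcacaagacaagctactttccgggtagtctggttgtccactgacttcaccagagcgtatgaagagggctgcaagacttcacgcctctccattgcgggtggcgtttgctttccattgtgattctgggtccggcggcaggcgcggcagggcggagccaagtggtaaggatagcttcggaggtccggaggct
Cox8b, chr7:140900447-140900696, - strand: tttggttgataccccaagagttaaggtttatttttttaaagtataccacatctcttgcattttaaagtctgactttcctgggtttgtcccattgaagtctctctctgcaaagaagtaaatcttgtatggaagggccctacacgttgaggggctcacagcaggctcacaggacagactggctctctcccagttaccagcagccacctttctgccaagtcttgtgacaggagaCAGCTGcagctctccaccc
Cox8a, chr19:7217617-7217866, - strand: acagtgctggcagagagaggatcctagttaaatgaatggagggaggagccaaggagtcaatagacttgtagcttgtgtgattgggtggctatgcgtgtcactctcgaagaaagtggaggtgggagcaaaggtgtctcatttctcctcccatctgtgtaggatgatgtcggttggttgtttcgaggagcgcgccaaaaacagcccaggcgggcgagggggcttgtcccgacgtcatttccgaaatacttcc
Cox6a1, chr5:115348959-115349208, - strand: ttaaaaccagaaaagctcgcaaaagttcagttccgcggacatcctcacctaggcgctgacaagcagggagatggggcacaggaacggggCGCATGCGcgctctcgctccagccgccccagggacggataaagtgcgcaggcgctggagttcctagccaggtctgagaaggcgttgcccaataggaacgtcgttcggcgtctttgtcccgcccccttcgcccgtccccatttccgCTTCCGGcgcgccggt

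In these windows the Cox6a1 promoter held 3 matches, an overlapping pair to the NRF-1 core on opposite strands and 1 to the ETS motif. The Cox8b promoter held 1 CAGCTG, and those of Cox7a1, Cox7a2 and Cox8a held none of the 3 motifs. Of the 79 genes, 64 had a promoter in the table. The NRF-1 core was in 9 of them (14.1%) and in 3.43% of all 27025 genes with a promoter. The ETS motif was in 12 (18.8%) and in 7.83%, and CAGCTG was in 6 (9.38%) and in 14.7%. Median G and C content was 56.2% in the members' promoters and 52.0% in all, and its part in these shares was not tested. The median difference was 0.20 for the 9 members with the NRF-1 core and 0.18 for the 55 without it, and 0.23 for the 12 with the ETS motif and 0.18 for the 52 without it. For CAGCTG it was 0.27 for the 6 members with it and 0.19 for the 58 without it. A match is a description of the letters only.

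Complex V had 15 of 18 genes higher (83.3%), where 51.8% of all genes were, and a median difference of 0.17. The higher ones include the pseudogene symbol Atp5c1-ps, below the gauge on both arrays. By at least 1.2-fold 7 genes were higher (38.9%), where 16.4% of all genes were. Of the 15 genes at or above the gauge on both arrays, 14 were higher, with a median of 0.25. The F1 head and central stalk, where ATP is made, had 5 of 5 genes higher, mostly with small differences (median 0.16). The catalytic beta subunit gene Atp5b was at 10.4 in control and 10.5 with ZAG (0.16), and the alpha subunit gene Atp5a1 at 9.18 and 9.32 (0.14). The epsilon subunit gene Atp5e was 0.30 higher on average, but its bright probe gave 0.49 (7.19 and 7.68) and its other probe 0.10. The gamma subunit gene Atp5c1 was at 4.22 and 4.47, and the delta subunit gene Atp5d was level (0.01). The 4 genes of the peripheral stalk, which holds the head in place, were all higher with a median of 0.34. Atp5h, subunit d, was 0.46 higher on average, with its bright probe at 9.25 and 9.60 and the other below the gauge. Atp5pb, subunit b, was at 8.62 and 8.99, Atp5j at 4.80 and 5.10, and Atp5o at 4.19 and 4.24.

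The membrane part of ATP synthase was mixed. Atp5mpl, a small proteolipid subunit, was at 7.61 in control and 8.18 with ZAG (0.57), the second highest difference of the set. Atp5k, subunit e, which helps ATP synthase dimers form, was at 8.13 and 8.54, and Atp5md at 10.3 and 10.6, while Atp5l, subunit g, was at 8.89 and 8.90. The c-ring that turns with the proton flow is encoded by 3 genes for the same mature protein. Of these Atp5g2 was at 8.51 and 8.70, with both probes alike (0.19 and 0.18), and Atp5g3 at 7.26 and 7.25. Atp5g1 was at 3.50 and 2.79, below the gauge with ZAG, so it was at least 1.26-fold lower.

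The mitochondrial genome supplies the other subunits of complexes I, III, IV and V. Of its 13 protein genes 10 were measured by probes with 1 symbol, and COX2 of complex IV and ATP6 and ATP8 of complex V were not analysed here. All 10 were higher, by 0.06 (ND4L) to 0.22 (COX1), with a median of 0.15. COX1, the catalytic subunit gene of complex IV, was at 12.6 in control and 12.8 with ZAG, CYTB of complex III at 12.4 and 12.5, and ND1 of complex I at 12.3 and 12.4. In this list 0 of 10 genes reached 1.2-fold. The medians of nuclear and mitochondrial subunit genes were thus 0.19 and 0.15.

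Other nuclear genes of mitochondria had medians from 0.07 to 0.18, list by list. Over all genes 51.8% were higher, 16.4% were at least 1.2-fold higher and 16.5% were lower by that fold. Assembly factors of the complexes had a median of 0.18 (34 of 46 higher, 14 of them by 1.2-fold or more, and 0 lower by that fold), led by Cox20 (0.65) and Cox19 (0.57), with Coa7 at -0.26. Mitochondrial ribosomal protein genes had 0.16 (60 of 71 higher), from 0.55 in Mrpl20 to -0.26 in Mrps2. Import and nucleotide carrier genes had 0.17 (23 of 27 higher), led by Timm21 (0.50), with Tomm34 at -0.27. Tricarboxylic acid cycle genes had 0.13 (10 of 12 higher), with the fumarase gene Fh1 at 7.49 and 8.08 and the citrate synthase gene Cs at 8.51 and 8.59, while Ogdh had -0.21. Genes for cytochrome c and ubiquinone synthesis had 0.07 (11 of 15 higher), with the cytochrome c gene Cycs 0.29 higher, Coq6 0.68 higher and Coq4 at -0.33.

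The regulators of these genes had a median of 0.04 (12 of 16 higher). Tfb1m, a methyltransferase of mitochondrial ribosomal RNA, was at 4.94 and 5.71 (0.77), but Tfam, which packages mitochondrial DNA, was at 5.11 and 5.15 and Nrf1 at 5.06 and 5.10. Ppargc1a, the coactivator PGC-1alpha, was near the gauge at 3.10 and 3.34, and the related gene Pprc1 had a difference of -0.33.

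The size of the shift was shared with housekeeping complexes outside mitochondria, read in 2 lists chosen after their values were seen. Genes of proteasome subunits and their assembly factors (the Psm symbols) had a median difference of 0.19 (32 of 38 higher). Of the 38, 2 were below the gauge on both arrays, Psma5 and Psmb11, and both count among the higher ones. Cytosolic ribosomal protein genes had one of 0.14 (41 of 57 higher), with 5 of the 57 below the gauge on both arrays. Set beside the 0.19 of the respiratory chain, these medians do not mark the chain as particular. Among other cell types, marker medians were lower with ZAG for fibroblasts (-0.46, 4 of 5 genes lower) and macrophages (-0.64, 3 of 4). They were also lower for neutrophils (-1.22, 3 of 4) and keratinocytes (-0.17, 3 of 4). The neutrophil gene Ly6g was below the gauge on both arrays. The median for smooth muscle was higher (0.18). For sebaceous glands the median of 4 genes was 0.38 but the summed ratio 0.911, since the bright desaturase gene Scd1 was at 10.7 and 10.5. Their part in the shift of the chain was not tested.

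**Figure D4:**
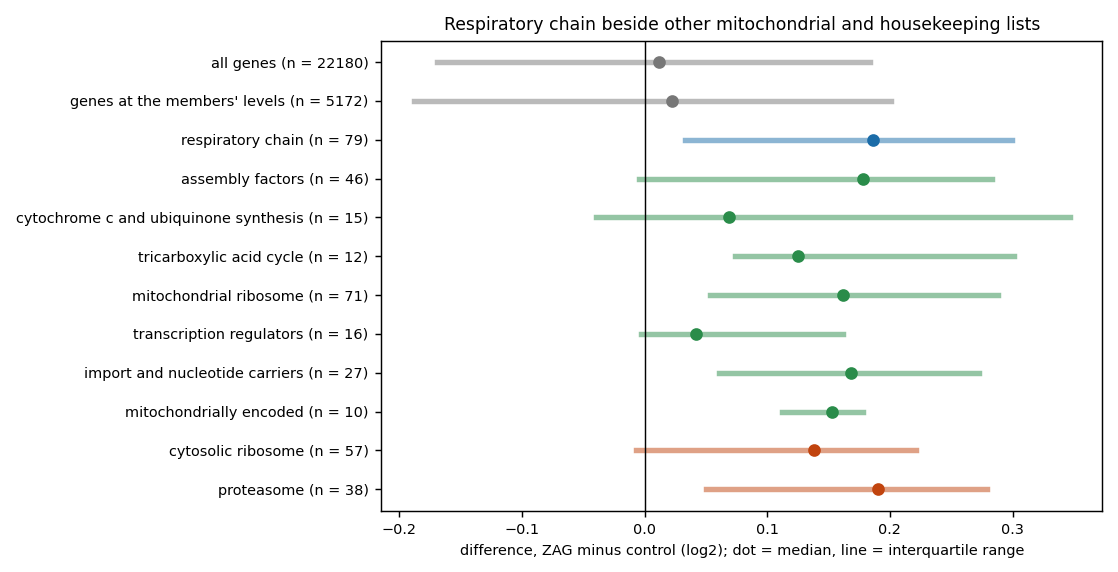
Median difference (dot) and interquartile range across genes (line), ZAG minus control on the log2 scale (x axis), for all genes, genes at the members' levels, the respiratory chain and 9 other lists. The respiratory chain (0.19) lies beside assembly factors (0.18), the mitochondrial ribosome (0.16) and the proteasome (0.19), all to the right of all genes (0.01).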

How the data were processed

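RNA of dorsal skin was labelled with biotin and hybridised to Affymetrix whole-transcript arrays, per the labels' protocols. The deposited numbers read as log2 values, which was inferred from their range (0.889 to 12.8 in control, 0.866 to 13.2 with ZAG); the authors' background correction, summarisation, normalization and software are not stated in the sources used. Of 33793 probes, 23521 had 1 gene symbol in the platform annotation, 1814 several and 8458 none. Single-symbol probes were averaged per gene (22180 genes; the 79 members had 88 probes). All 79 member gene IDs were found in the RefSeq gene table. Each log2 difference subtracts control from ZAG without rescaling, with folds of 1.2, 1.5 and 2 counted. The members, lists and background gauge were chosen with earlier results of these data known. Of members, per complex the 3 largest differences each way, all isoform pairs, complex II and Ndufa4 were to be named, and of other lists at most 2 each way plus fixed markers; the remaining genes were named after their values were seen. The number of arrays limits the precision. Python 3.11.15, pandas 2.3.3 and statsmodels 0.14.6 were used. In a check on reshuffled differences, a constant added to some genes moved their median by that constant. This holds by construction, so the counting itself was not tested. Alternatives were array scaling, probe choice and level filters.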

Additional observations from a re-analysis of the deposited data

Results flagged for a closer look

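Probes that carry several gene symbols do not enter the comparison because their gene is not settled. Among them, 10 had at least 1 symbol that fitted the rule for respiratory chain genes, and most of them read higher than on the control array. Of these, 9 were higher with ZAG and 1 was lower, where 58.7% of all 1814 such probes were higher. At least 1.2-fold higher were 6 of the 10, against 18.4% of the 1814. The median difference was 0.31, with a range of -0.20 to 0.48, and it was 0.05 over all of them.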

How the results depend on the processing

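With 1 array per group, the sensitivity values describe 2 arrays, and a move was judged against the SD between probes of a gene, divided by the square root of the number of genes in a median. Over all 79 members the median difference was 0.159 to 0.187 in the 5 settings that keep them all, 0.202 under either level filter, and the mean was 0.159. Median centring gave 59 higher members and loess on level 60, against 67 as deposited. The median of complex II turned to -0.0084 after median centring and to -0.0158 after loess, and was 0.144 as a mean over members. That of complex IV was 0.0691 after loess, 0.201 at or above the median level and 0.0314 as a mean. That of complex V was 0.248 at or above the median level and above the gauge. Members at least 1.2-fold lower numbered 2 under both level filters, against 6, since these leave out dim genes. Cox7b turned to 0.0293 with its brightest probe. The causes of the shifts with loess and centring were not tested. The other 80 summary values kept their direction and moved by less than that criterion (counts, by less than 1.5 times). Some of them could not move. Centring cancels in the isoform gaps, and probe choice and level filters leave the genes of complexes II and III unchanged. The criterion is also wide for small groups: the median of complex III ran from 0.0512 (centring) to 0.143 (mean), and the gap of Cox6a2 to Cox6a1 from -0.0848 to -0.0103 (loess). No paired analysis was possible because each group has 1 array. Genes below the gauge carry little information at this signal over background.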
